A study of Mus musculus with 5 samples.

Results

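Cytochrome P450 enzymes are haem proteins of the endoplasmic reticulum and mitochondria that insert an oxygen atom into drugs, fatty acids, sterols, steroids and retinoids. They take their electrons from P450 reductase or from ferredoxin. In the kidney they stand mostly in the proximal tubule, where members of the CYP2J and CYP4 families turn arachidonic acid into epoxides and hydroxy acids that act on salt transport and blood vessels. P450 genes lie in clusters of close copies, and many of the mouse genes differ between tissues and sexes.

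The family was taken as the genes whose symbol is Cyp followed by a number, 1 letter and a number. Of 92 such genes, 8 that belong to the aryl hydrocarbon receptor, vitamin D and PPAR-alpha responses were left out, which gave 84 members of the 21878 genes in the table, in 34 subfamilies. Their transcripts were compared between kidneys of NZB/NZW F1 mice injected intraperitoneally with 50 mg/kg of the plant flavone diosmetin every other day for 6 weeks (3 libraries) and kidneys of NZB/NZW F1 mice given vehicle on the same schedule (2 libraries). These hybrids come from NZB/BINJ mothers and NZW/LacJ fathers and develop lupus-like nephritis. The labels give neither age nor sex of the treated mice, and the 4 Y-linked genes examined reached at most 0.0409 FPKM (Eif2s3y, diosmetin replicate 2) in any library. FPKM is the fragment count scaled to transcript length and library total, so levels can be set side by side between genes.

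The libraries held an estimated 47.2, 43.4 and 45.3 M fragments for diosmetin replicates 1, 2 and 3, against 38.5 and 49.6 M for vehicle replicates 1 and 2. These estimates are approximate, since 44.99% to 50.2% of the low values used came within 0.1 of a whole fragment, and fragment numbers below share that limit. A 2 kb transcript at 1 FPKM then rests on about 77.1 to 99.2 fragments. Libraries correlated across genes with r of at least 0.984 on the log2 scale (genes are not independent replicates). All 25 proximal tubule markers were expressed, and none was listed at 0. With limma, 0 of 13290 tested genes passed an adjusted p of 0.05 in the comparison of diosmetin with vehicle (0% called), and 847 stood at an unadjusted p under 0.05.

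Of the 84 members, 31 in 21 subfamilies had a mean of at least 0.5 FPKM and were tested. Another 40 were detected in at least 1 library but stayed below that mean, and 13 were listed at 0 in every library. The lowest tested member was Cyp7b1 with a mean of 0.882 FPKM, and the highest untested ones were Cyp2j8 at 0.461 and Cyp2b9 at 0.454 FPKM. The 6 enzymes with means above 100 FPKM were Cyp4b1, Cyp2j5, Cyp2d26, Cyp2j11, Cyp2a5 and Cyp2a4.

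The genes on which the text turns lie in several of the family's clusters. By the RefSeq annotation of GRCm38.p6, as whole gene spans, Cyp2j5 (GeneID 13109) lies at chr4:96627432-96664171 and Cyp4b1 (GeneID 13120) at chr4:115624698-115647721. Cyp2a4 (GeneID 13086) lies at chr7:26307192-26315088 and Cyp2a5 (GeneID 13087) at chr7:26835339-26843264. Cyp2d9 (GeneID 13105) lies at chr15:82452377-82456827 and Cyp2d12 (GeneID 380997) at chr15:82555043-82559413. Cyp26b1 (GeneID 232174) lies at chr6:84571414-84593908, Cyp3a13 (GeneID 13113) at chr5:137892933-137925610 and Cyp7b1 (GeneID 13123) at chr3:18071944-18243890.

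The upstream sequences of the Cyp2a pair are shown because the balance between these genes differed from library to library and the copies are nearly alike. Each stretch has 249 bases, read 5′ to 3′ on the plus strand from RefSeq (GRCm38.p6), at chr7:26306943-26307191 for Cyp2a4 and chr7:26835089-26835337 for Cyp2a5. The capitals mark the 4 bases that differ, and the stretches are 98.4% identical.
Cyp2a4: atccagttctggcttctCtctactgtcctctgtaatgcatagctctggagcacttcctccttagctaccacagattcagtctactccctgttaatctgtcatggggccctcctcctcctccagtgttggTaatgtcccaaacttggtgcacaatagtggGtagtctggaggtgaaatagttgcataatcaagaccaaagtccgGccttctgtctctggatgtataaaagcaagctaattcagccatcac
Cyp2a5: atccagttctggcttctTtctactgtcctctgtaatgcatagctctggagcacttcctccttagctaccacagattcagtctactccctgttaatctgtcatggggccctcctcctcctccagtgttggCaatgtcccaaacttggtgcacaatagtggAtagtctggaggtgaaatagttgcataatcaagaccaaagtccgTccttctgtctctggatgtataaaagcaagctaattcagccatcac

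Upstream stretches are also shown for 4 of the 6 members with the smallest p-values, so that the promoter of the retinoid enzyme can be set beside those of the kidney and liver enzymes. Each has the 150 bases before the start in RefSeq's promoter table, which for Cyp26b1, Cyp2j5 and Cyp3a13 lies inside the gene's widest annotated span. They are read 5′ to 3′ on the gene's strand, and capitals mark TATAAA on either strand (TTTATA when it lies on the other one). They lie at chr6:84593811-84593960 (minus strand) for Cyp26b1, chr15:82452227-82452376 (plus) for Cyp2d9, chr4:96664120-96664269 (minus) for Cyp2j5 and chr5:137921620-137921769 (minus) for Cyp3a13.
Cyp26b1: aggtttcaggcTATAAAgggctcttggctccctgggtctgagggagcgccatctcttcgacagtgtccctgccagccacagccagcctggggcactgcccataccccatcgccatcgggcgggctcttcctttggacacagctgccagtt
Cyp2d9: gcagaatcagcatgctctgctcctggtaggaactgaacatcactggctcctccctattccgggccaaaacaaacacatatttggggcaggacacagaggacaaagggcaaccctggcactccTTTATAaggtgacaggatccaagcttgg
Cyp2j5: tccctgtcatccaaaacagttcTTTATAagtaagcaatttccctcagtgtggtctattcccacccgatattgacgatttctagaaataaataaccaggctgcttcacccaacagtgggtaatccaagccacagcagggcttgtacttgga
Cyp3a13: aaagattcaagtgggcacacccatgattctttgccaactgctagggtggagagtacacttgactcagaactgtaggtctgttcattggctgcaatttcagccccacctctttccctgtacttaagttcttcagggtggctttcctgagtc

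In these windows the motif began 139 bases before the start of Cyp26b1, 28 before Cyp2d9 and 128 before Cyp2j5, and the Cyp3a13 stretch held none. Over the full 300-base windows (250 before to 50 after the start), TATAAA on either strand was in 30 of 78 member promoters (38.5%), against 13.6% of all 32851 promoters in the table. Among the tested members 8 of 24 with a promoter held it. CAAAGTCCA, a sequence bound by the liver and kidney factor HNF4A, was in 9 of 78 member promoters (11.5%), against 0.475% of all promoters. None of the 24 tested members with a promoter held it. All of the 9 genes except Cyp8b1 were CYP2C or CYP3A genes, whose promoters may be close copies and not separate observations. The direct repeat bound by PPAR and HNF4A (AGGTCA, any base, AGGTCA) was in no member promoter and in 0.0396% of all promoters. All motifs named here were searched on both strands, and another planned motif was not searched. A match describes letters in the window and is not a binding site.

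The family's transcript pool was held by a few enzymes. The FPKM of all members summed to 1927, 1394 and 1559 in diosmetin replicates 1, 2 and 3, against 1871 and 1683 in vehicle replicates 1 and 2. Diosmetin replicate 1 had the highest sum and diosmetin replicate 2 the lowest, so the groups overlapped. The 5 highest members held 77.9% to 83.4% of the sum in every library, and the 10 highest held 93.2% to 94.96%. CYP4B alone gave 32.5% of the summed mean level, CYP2J 29.0%, CYP2A 15.3% and CYP2D 12.5%. Enzymes of fatty acids together gave 64.5% and those of foreign compounds 32.6%.

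**Figure D1:**
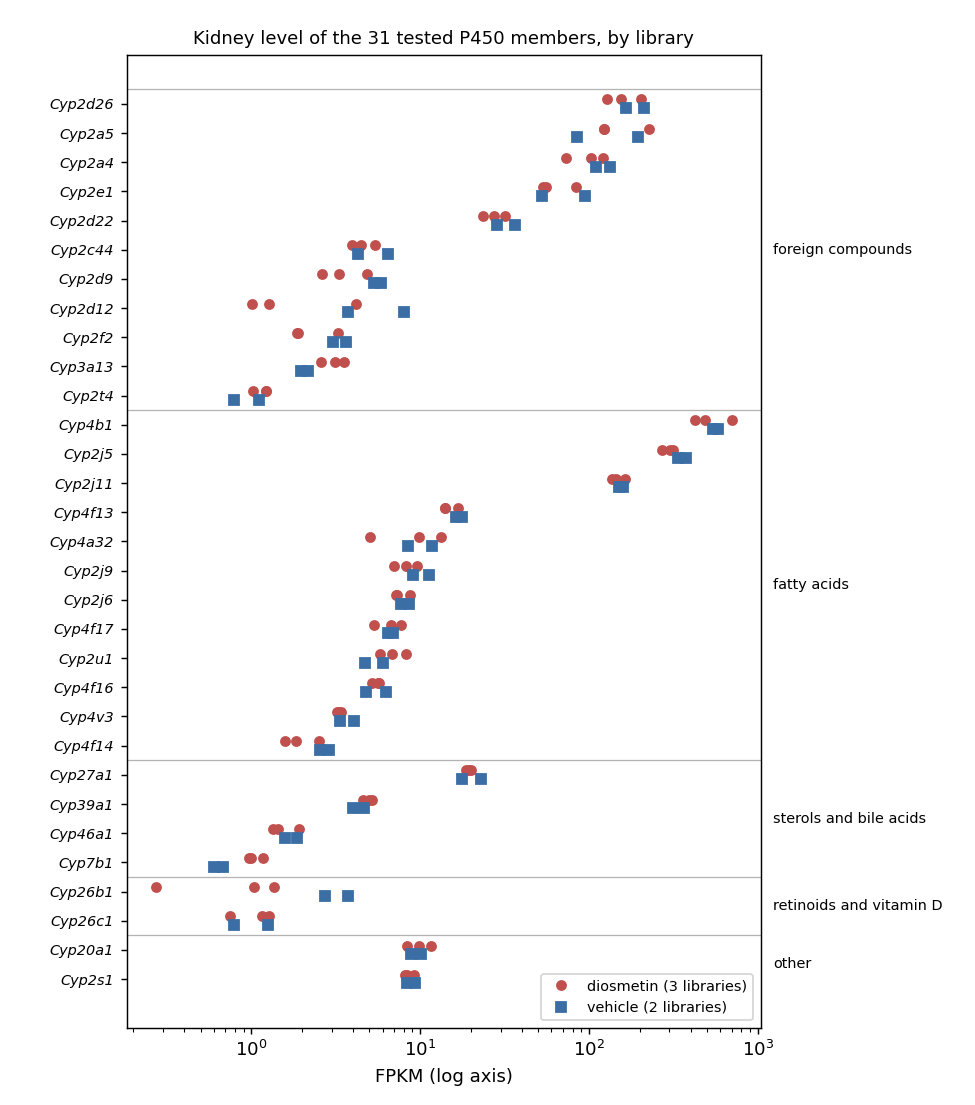
FPKM on a log axis for the 31 tested P450 members, grouped by role, with a point for each diosmetin library (circles) and each vehicle library (squares). Cyp4b1, Cyp2j5 and Cyp2d26 stand highest, and Cyp26b1 is the member whose groups lie farthest apart.

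**Figure D2:**
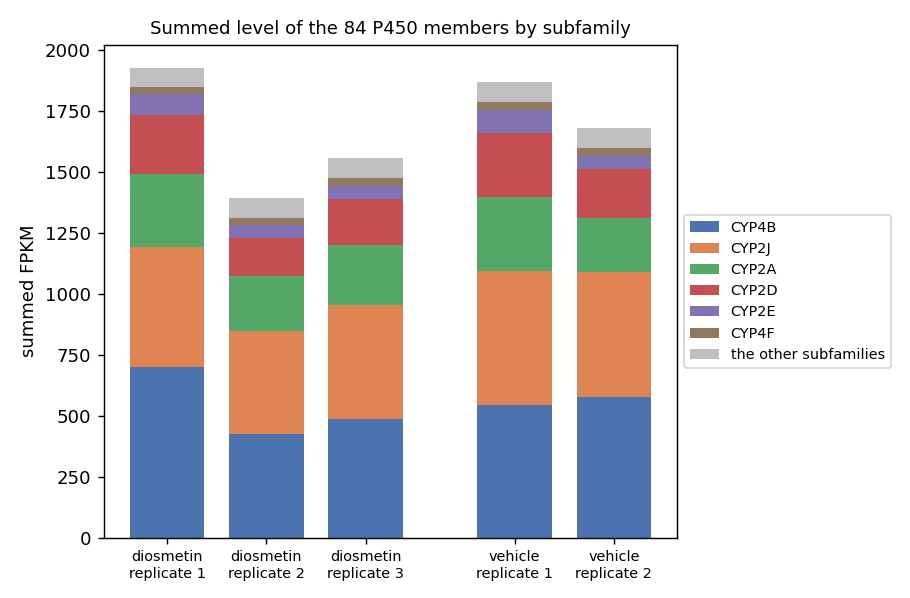
Summed FPKM of the 84 members in each library (bars start at 0), divided by subfamily, with the 3 diosmetin libraries left of the 2 vehicle libraries. The sums run from 1394 in diosmetin replicate 2 to 1927 in diosmetin replicate 1, with the vehicle libraries between them.

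No member passed the test over all genes. The smallest adjusted p of a member was 0.738 by limma, and 0 of 31 members were called, as were 0% of all tested genes. Of the 31 tested members 22 (71.0%) had a lower mean log2 value under diosmetin than under vehicle, while 36.1% of all tested genes did. The median log2 difference (diosmetin minus vehicle, here and below) was -0.09 over the members, against 0.04 over all tested genes. Each of these medians and shares depends on the scaling. The members' median minus that of all tested genes was -0.135 as deposited and -0.144 with median-of-ratios scaling. That scaling cannot test this gap, because it divides members and other genes of a library by the same factor. Over all alternatives the gap ranged from -0.214 (vehicle replicate 2 left out) to -0.031 (no filter). Leaving out diosmetin replicate 2 gave -0.077, and a pseudocount of 0.1 gave -0.189. With median-of-ratios scaling the medians were -0.15 over the members and -0.0040 over all tested genes, and 24 of 31 members had lower means, against 51.2% of all tested genes. For 17 members the difference was at most 0.2 in size.

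At an unadjusted p under 0.05 by limma stood 2 members with a higher mean, Cyp3a13 and Cyp7b1, and 4 with a lower one, Cyp26b1, Cyp2d9, Cyp2d12 and Cyp2j5. Among all tested genes 4.68% were at that level in the higher direction and 1.69% in the lower direction, and the members' shares were 6.45% and 12.9%. The groups did not overlap for 2 members in the higher direction, against 18.3% of all tested genes, and for 4 members in the lower direction, against 6.17%. Both counts rest on the same 5 values of a gene and are not separate observations. The split among all tested genes at that level was 73.4% higher as deposited and 50.5% higher with median-of-ratios scaling, while the same 6 members stood at that level under both. Without diosmetin replicate 2 the members at that level numbered 0 higher and 1 lower, against 2.04% and 0.865% of all tested genes. Without diosmetin replicate 3 they numbered 0 higher and 6 lower, against 3.47% and 1.66% of all tested genes. Without vehicle replicate 1 they numbered 1 higher and 1 lower, against 1.99% and 4.02% of all tested genes, whose split then turned to 33.2% higher. Without vehicle replicate 2 they numbered 1 higher and 5 lower, against 8.15% and 2.86% of all tested genes. Cyp26b1 was among them under each of these.

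**Figure D3:**
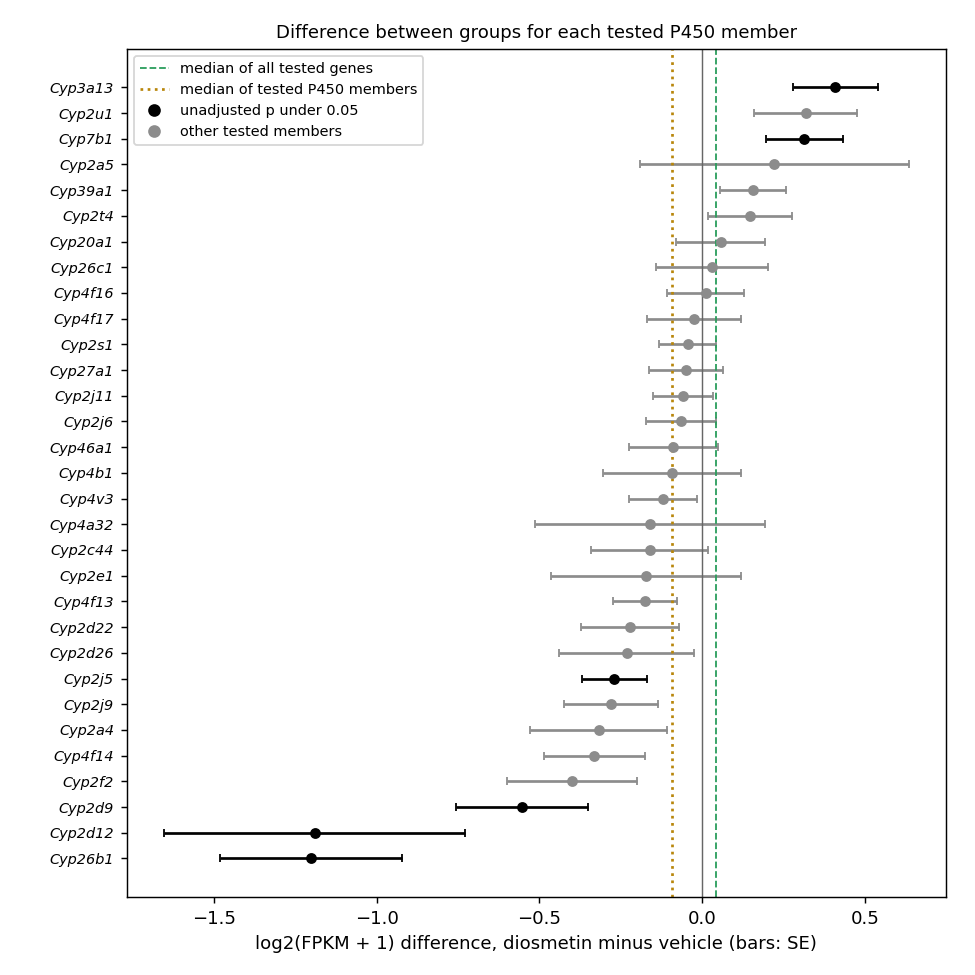
Difference in log2(FPKM + 1), diosmetin minus vehicle, with its SE from limma, for the 31 tested members in order of size. Black points mark the 6 members at an unadjusted p under 0.05, and the vertical lines mark the medians of the members (-0.09) and of all tested genes (0.04).

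The member that differed most was Cyp26b1, which inactivates retinoic acid by hydroxylation. Its transcript stood at 0.271, 1.37 and 1.04 FPKM in the diosmetin libraries, against 2.74 and 3.75 FPKM in the vehicle libraries. All 3 diosmetin values lay below both vehicle values, and the lowest, in diosmetin replicate 1, rested on about 57.4 fragments. The diosmetin libraries averaged 0.894 ± 0.564 FPKM and the vehicle libraries 3.24 ± 0.711 FPKM (SD, n = 3 and 2). The log2 difference was -1.20 ± 0.28 (SE), with unadjusted p = 0.00481 and adjusted p = 0.738 by limma, and it was -1.95 with a pseudocount of 0.1. The exact permutation test gave p = 0.1, the smallest it can give. Over all alternatives the adjusted p ran from 0.425 to 0.999997.

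The related retinoic acid hydroxylase Cyp26c1 was at 0.751, 1.28 and 1.15 FPKM under diosmetin, against 1.25 and 0.787 FPKM under vehicle, with wide overlap. Its log2 difference was 0.03 ± 0.17 (SE), and -0.00097 with median-of-ratios scaling. Whether the differences of Cyp26b1 and Cyp26c1 differ from each other was not tested. Cyp26a1 lay between 0.1002 and 0.346 FPKM in the 5 libraries and Cyp2r1, a vitamin D 25-hydroxylase, between 0.0667 and 0.133, both under the filter.

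Of 7 other tested retinoid genes, from a list without P450 members, 4 had a higher and 3 a lower mean, the median log2 difference was 0.01, and none stood at an unadjusted p under 0.05. Dhrs3, which reduces retinaldehyde, averaged 97.6 ± 10.2 FPKM in diosmetin libraries and 103 ± 3.70 FPKM in vehicle libraries (SD, n = 3 and 2). Aldh1a1, which makes retinoic acid, averaged 97.5 ± 20.1 FPKM in diosmetin libraries and 95.2 ± 1.96 FPKM in vehicle libraries (SD, n = 3 and 2).

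Among the enzymes of foreign compounds the CYP2D subfamily had lower means throughout. All 4 tested members were lower, with a median log2 difference of -0.39, and the subfamily summed to 242, 157 and 189 FPKM under diosmetin against 264 and 203 FPKM under vehicle. The sums overlapped, because diosmetin replicate 1 lay above vehicle replicate 2.

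Cyp2d9, a testosterone 16-alpha hydroxylase known from male mouse liver, was at 2.62, 3.31 and 4.87 FPKM under diosmetin, against 5.88 and 5.36 FPKM under vehicle. The groups did not overlap, and the log2 difference was -0.55 ± 0.20 (SE, unadjusted p = 0.0337 and adjusted p = 0.738 by limma). Cyp2d12, from the same cluster, whose coding sequence is 92.1% identical to that of Cyp2d9, was at 4.15, 1.01 and 1.27 FPKM under diosmetin, against 7.99 and 3.75 FPKM under vehicle. Diosmetin replicate 1 lay above vehicle replicate 2, so these groups overlapped. The log2 difference of Cyp2d12 was -1.19 ± 0.46 (SE, unadjusted p = 0.0414 and adjusted p = 0.738 by limma), -0.73 without vehicle replicate 1 and -1.65 without vehicle replicate 2. Fragments of Cyp2d9 could also be shared with Cyp2d11, at 93.3% identity, and the counting could have divided them.

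The abundant members of the subfamily overlapped between groups. Cyp2d26 was at 203, 129 and 155 FPKM under diosmetin, against 213 and 165 FPKM under vehicle. Cyp2d22, held to be the mouse counterpart of human CYP2D6, was at 31.8, 23.6 and 27.5 FPKM under diosmetin, against 36.4 and 28.4 FPKM under vehicle. In both genes diosmetin replicate 2 was lowest and vehicle replicate 1 highest. The other 4 CYP2D members stayed at or below 0.203 FPKM in every library.

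The balance of the CYP2A pair differed between libraries. Cyp2a5, the mouse coumarin 7-hydroxylase, was at 226, 122 and 123 FPKM under diosmetin, against 195 and 85.0 FPKM under vehicle. Cyp2a4, a testosterone 15-alpha hydroxylase, was at 73.3, 103 and 120.4 FPKM under diosmetin, against 110.1 and 133 FPKM under vehicle. Diosmetin replicate 1 had the highest Cyp2a5 and the lowest Cyp2a4, and vehicle replicate 2 had the lowest Cyp2a5 and the highest Cyp2a4.

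Cyp2a5 made up 75.5%, 54.2% and 50.6% of the pair's FPKM under diosmetin and 63.9% and 39% under vehicle. The sum of the pair was steadier, at 299.4, 225 and 244 FPKM under diosmetin, against 305 and 218 FPKM under vehicle. The highest library was 1.40 times the lowest for the sum, 2.66 times for Cyp2a5 and 1.81 times for Cyp2a4. The exact permutation test (two-sided) gave p = 0.9 for the sum and p = 0.6 for the Cyp2a5 share. Its smallest possible p is 0.1 with these libraries, so it cannot show that the groups are alike. Their coding sequences are 98.5% identical, and the part of fragment assignment in these values was not tested. The other CYP2A members, Cyp2a12 and Cyp2a22, reached at most 0.106 FPKM.

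**Figure D4:**
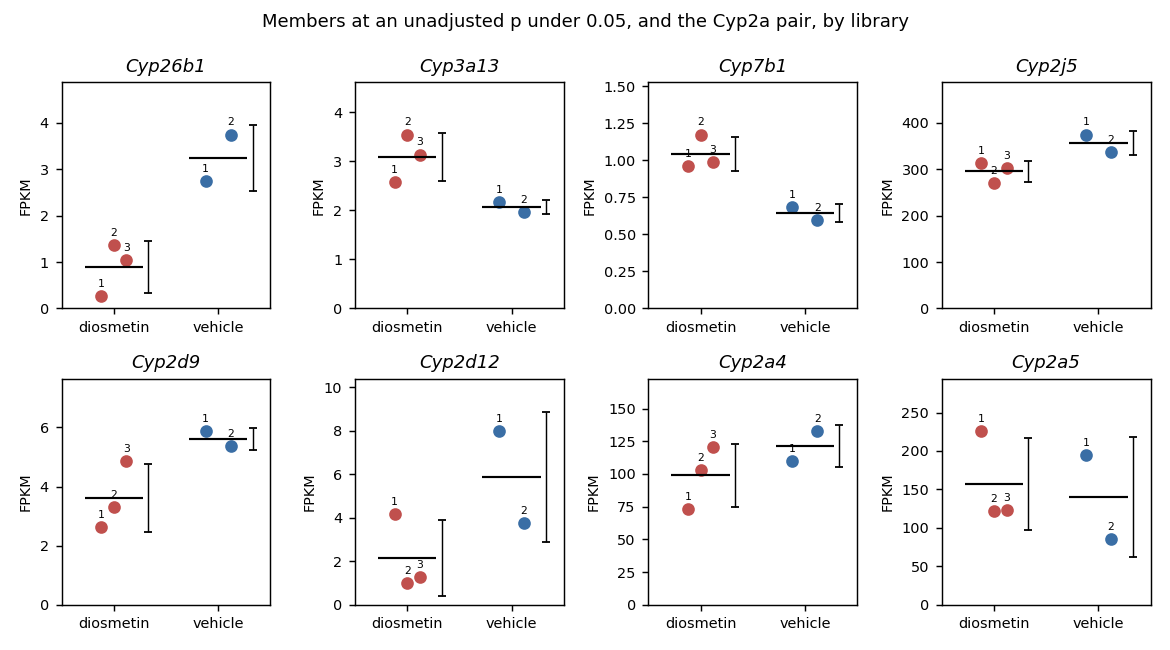
FPKM by library for the 6 members at an unadjusted p under 0.05 and for Cyp2a4 and Cyp2a5, with diosmetin left of vehicle. Numbers give the replicate, horizontal lines the mean, and bars beside the points the SD (n = 3 diosmetin, n = 2 vehicle); the Cyp26b1 groups are apart, and the Cyp2a5 groups overlap.

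Cyp3a13, the CYP3A enzyme that mice also express outside the liver, was the only CYP3A member tested. It was at 2.58, 3.55 and 3.14 FPKM under diosmetin, against 2.17 and 1.96 FPKM under vehicle. All 3 diosmetin values were above both vehicle values. The log2 difference was 0.41 ± 0.13 (SE, unadjusted p = 0.0196 and adjusted p = 0.738 by limma). The other 6 CYP3A members stayed at or below 0.215 FPKM.

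Cyp2e1, the ethanol-oxidising P450, was at 84.1, 53.3 and 55.5 FPKM under diosmetin, against 94.9 and 53.0 FPKM under vehicle. Diosmetin replicate 1 and vehicle replicate 1 stood apart from the other libraries, and the difference of -0.17 became 0.24 without vehicle replicate 1. Cyp2f2, which oxidises naphthalene in the mouse airway, was at 1.86, 1.89 and 3.26 FPKM under diosmetin, against 3.62 and 3.05 FPKM under vehicle. Cyp2t4 was at 1.03, 1.23 and 1.22 FPKM under diosmetin, against 1.11 and 0.795 FPKM under vehicle. In each of these genes the groups overlapped.

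Of 15 CYP2C members only Cyp2c44 (RefSeq symbol Cyp2c23), an arachidonic acid epoxygenase, was tested, and 4 of the others were listed at 0 throughout. Cyp2c44 was at 5.42, 3.96 and 4.47 FPKM under diosmetin, against 4.26 and 6.41 FPKM under vehicle, and its difference changed sign without vehicle replicate 2. The untested CYP2C members reached at most 0.655 FPKM. None of the 5 CYP2B members, which include the phenobarbital-inducible liver gene Cyp2b10, was tested, and the highest reached 0.532 FPKM.

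The fatty acid enzymes held most of the family's transcript. Of 12 tested members 10 had a lower and 2 a higher mean under diosmetin, with a median log2 difference of -0.11. Cyp4b1, which hydroxylates fatty acids and activates several toxicants, was the highest member of the family, at 701, 427 and 489 FPKM under diosmetin, against 546 and 578 FPKM under vehicle. The diosmetin libraries lay on both sides of the vehicle libraries, and the difference of -0.09 became 0.060 without diosmetin replicate 2.

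Cyp2j5, an arachidonic acid epoxygenase abundant in mouse proximal tubule, had 313, 271 and 302 FPKM in the diosmetin libraries, against 375 and 338 FPKM in the vehicle libraries. All 3 diosmetin values were below both vehicle values. The diosmetin mean was 295.5 ± 22.2 and the vehicle mean 356 ± 26.04 (SD, n = 3 and 2). On the log2 scale this is -0.27 ± 0.10 (SE, unadjusted p = 0.0355 and adjusted p = 0.738 by limma). Its closest relative is Cyp2j6 at 78.4% identity of the coding sequence.

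The other CYP2J genes were closer between the groups. Cyp2j11 ranged from 138 to 164 FPKM under diosmetin and was at 151 and 159 FPKM under vehicle. Cyp2j9 was at 8.25, 7.01 and 9.53 FPKM under diosmetin, against 11.3 and 9.12 FPKM under vehicle, and Cyp2j6 was between 7.24 and 8.74 FPKM in all 5 libraries. All 4 tested CYP2J members had lower means, and the subfamily summed to 461 ± 35.2 FPKM in diosmetin libraries and 531 ± 23.5 FPKM in vehicle libraries (SD, n = 3 and 2). The direction of Cyp2j6 turned to 0.0097 without vehicle replicate 1.

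Cyp2u1, a hydroxylase of long-chain fatty acids, was at 5.79, 8.30 and 6.81 FPKM under diosmetin, against 4.74 and 6.00 FPKM under vehicle. The groups overlapped through diosmetin replicate 1, and the log2 difference was 0.32 ± 0.16 (SE), 0.17 without vehicle replicate 1 and 0.46 without vehicle replicate 2. Cyp4a32, which shares 97.2% of its coding sequence with Cyp4a10, was at 13.3, 5.08 and 9.84 FPKM under diosmetin, against 8.42 and 11.7 FPKM under vehicle. Its highest and lowest values were both in diosmetin libraries.

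In the CYP4F subfamily, omega-hydroxylases of leukotrienes and fatty acids, 3 of 4 tested members had lower means. Cyp4f14 was at 1.58, 1.84 and 2.51 FPKM under diosmetin, against 2.89 and 2.55 FPKM under vehicle, without overlap, although diosmetin replicate 3 came close to vehicle replicate 2. Its log2 difference was -0.33 ± 0.15 (SE, unadjusted p = 0.0751 and adjusted p = 0.738 by limma). Cyp4f13, the highest of them, was at 14.1, 14.1 and 16.8 FPKM under diosmetin, against 17.8 and 16.3 FPKM under vehicle. Cyp4f16 averaged 5.52 FPKM in each group and Cyp4f17 6.58 FPKM under diosmetin and 6.66 FPKM under vehicle. Cyp4v3, the mouse counterpart of human CYP4V2, was at 3.31, 3.40 and 3.20 FPKM under diosmetin, against 3.34 and 4.04 FPKM under vehicle.

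Among the enzymes of sterols and bile acids, Cyp7b1, the oxysterol 7-alpha hydroxylase, had the higher mean under diosmetin. It was at 0.963, 1.17 and 0.991 FPKM under diosmetin, against 0.684 and 0.600 FPKM under vehicle, with no overlap. The log2 difference was 0.31 ± 0.12 (SE, unadjusted p = 0.0373 and adjusted p = 0.738 by limma), and 0.62 with a pseudocount of 0.1. Its lowest value rested on about 57.1 fragments, and with a minimum mean of 1 FPKM the gene was not tested.

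Cyp39a1, which hydroxylates 24-hydroxycholesterol, was at 4.999, 5.20 and 4.56 FPKM under diosmetin, against 3.99 and 4.64 FPKM under vehicle. Cyp27a1, the mitochondrial sterol 27-hydroxylase, was at 18.8, 19.9 and 19.5 FPKM under diosmetin, against 23.0 and 17.6 FPKM under vehicle, so the vehicle libraries enclosed the diosmetin ones. Cyp46a1, the cholesterol 24-hydroxylase best known from neurons, was at 1.44, 1.35 and 1.92 FPKM under diosmetin, against 1.87 and 1.58 FPKM under vehicle. Cyp7a1, the first enzyme of bile acid synthesis in the liver, was listed at 0 in every library.

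None of the 6 steroid hormone synthesis members was tested. Cyp11b2 and Cyp19a1 were listed at 0, Cyp11a1, Cyp11b1 and Cyp21a1 reached at most 0.0712 FPKM, and Cyp17a1 lay between 0.134 and 0.669 FPKM. Of 10 adrenal cortex markers 6 were tested. Nr5a1, a transcription factor of steroid-producing cells, and Mc2r, the ACTH receptor, reached at most 0.0357 FPKM. Hsd3b1 lay between 0.111 and 0.325 FPKM and Mrap between 0.0703 and 0.249 FPKM, both under the filter. Star lay between 2.36 and 3.59 FPKM, Akr1b7 between 2.61 and 5.35 FPKM and Hsd3b2 between 114 and 168 FPKM. Whether any of these values come from adrenal tissue was not tested. Cyp20a1, an enzyme without a settled substrate, was at 8.39, 11.6 and 9.82 FPKM under diosmetin, against 8.88 and 10.1 FPKM under vehicle. Cyp2s1, expressed in epithelia, was at 8.37, 9.16 and 8.12 FPKM under diosmetin, against 8.39 and 9.32 FPKM under vehicle. Both overlapped widely.

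The electron donors and haem enzymes that P450s depend on lay near 0 as a list. Of 23 tested genes 12 had a higher and 11 a lower mean, the median log2 difference was 0.0093, and 1 stood at an unadjusted p under 0.05 in each direction. Por, the P450 reductase, averaged 106 ± 9.57 FPKM in diosmetin libraries and 112 ± 4.59 FPKM in vehicle libraries (SD, n = 3 and 2). Fech, which inserts iron into haem, was at 38.7, 35.0 and 37.1 FPKM under diosmetin, against 43.5 and 41.6 FPKM under vehicle, and Hmox2, a haem oxygenase, at 21.3, 20.8 and 20.5 FPKM under diosmetin, against 18.99 and 17.8 FPKM under vehicle.

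Receptors and factors that act on P450 genes showed no member at an unadjusted p under 0.05. Of 24 tested 14 had a higher and 10 a lower mean, with a median log2 difference of 0.01. Nr1i2, the receptor PXR, was at 5.33, 4.09 and 6.61 FPKM under diosmetin, against 6.94 and 5.12 FPKM under vehicle. Ppara, which had the largest difference of the tested ones (log2 difference -0.45 ± 0.20, SE), was at 38.6, 28.7 and 28.4 FPKM under diosmetin, against 53.1 and 35.6 FPKM under vehicle. The highest of the list were Hnf4a and Vdr. Hnf4a averaged 224 ± 7.36 FPKM in diosmetin libraries and 224 ± 27.4 FPKM in vehicle libraries (SD, n = 3 and 2). For Vdr the averages were 107 ± 13.2 FPKM and 109 ± 1.18 FPKM.

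Other oxidases of foreign compounds, the flavin monooxygenases and aldehyde and amine oxidases, had lower means in all 7 tested genes, with a median log2 difference of -0.16 and none at an unadjusted p under 0.05. Fmo1 was at 338, 194 and 222 FPKM under diosmetin, against 360.3 and 296.6 FPKM under vehicle. Among 12 tested epoxide hydrolases and eicosanoid enzymes 7 were higher and 5 lower, with a median of 0.02. Of these Ptgds, a prostaglandin D synthase, alone had an unadjusted p below 0.05, and stood at 1.06, 1.43 and 1.56 FPKM under diosmetin, against 1.86 and 2.94 FPKM under vehicle. Of 7 tested androgen-raised kidney genes 2 were higher and 5 lower, with a median of -0.07, and Acsm3 alone, higher, stood at that level. Kap, the highest of them, was at 2551, 2808 and 4751 FPKM under diosmetin, against 4708 and 6153 FPKM under vehicle, with overlap. Its log2 difference, the largest of the list, was -0.73 ± 0.32 (SE, unadjusted p = 0.0628 and adjusted p = 0.738 by limma). Odc1, the next highest, averaged 143 ± 4.65 FPKM in diosmetin libraries and 152 ± 31.1 FPKM in vehicle libraries (SD).

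Proximal tubule markers had lower means in the same comparison. Of 25 tested markers 23 were lower and 2 higher, 4 of them at an unadjusted p under 0.05 and all 4 lower, with a median log2 difference of -0.28. Among all tested genes 1.69% stood at that level in the lower direction. Lower means were found in 36.1% of all tested genes as deposited and in 51.2% with median-of-ratios scaling. Marker counts were not worked out with that scaling. The proximal tubule markers summed to 9798 to 14333 FPKM under diosmetin and 12959.9 to 15945 FPKM under vehicle. The 7 markers of its S1 and S2 segments had a median of -0.63 and the 8 of its S3 segment one of -0.24, all of them lower but few at an unadjusted p under 0.05 (1 in each list). In bulk kidney, fewer cells of a type and less RNA per cell cannot be told apart, and the part of proximal tubule content in the P450 values was not tested.

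Library by library, the marker median (log2 values centred on each gene's mean) was 0.12, -0.37 and -0.13 in diosmetin replicates 1, 2 and 3, against 0.30 and 0.06 in vehicle replicates 1 and 2. The same median over the 31 tested P450 members was -0.04, -0.13 and 0.03 in the diosmetin libraries, against 0.12 and 0.04 in the vehicle libraries. Diosmetin replicate 2 was lowest and vehicle replicate 1 highest in both. Over all tested genes the order was reversed, with 0.05 in diosmetin replicate 2 (highest) and -0.05 in vehicle replicate 1 (lowest). The median-of-ratios factor was also highest in diosmetin replicate 2 (1.05) and lowest in vehicle replicate 1 (0.956). These medians use FPKM as deposited, and the part of library scaling in the shared order was not tested. Diosmetin replicate 1 lay above vehicle replicate 2 among the markers and below it among the P450 members. All 11 collecting duct markers had higher means, while 36.1% of all tested genes had lower ones. At an unadjusted p under 0.05 stood 9 of the 11, against 4.68% of all tested genes in the higher direction. The collecting duct medians were 0.16, 0.16 and 0.13 in the diosmetin libraries and -0.30 and -0.18 in the vehicle libraries.

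**Figure D5:**
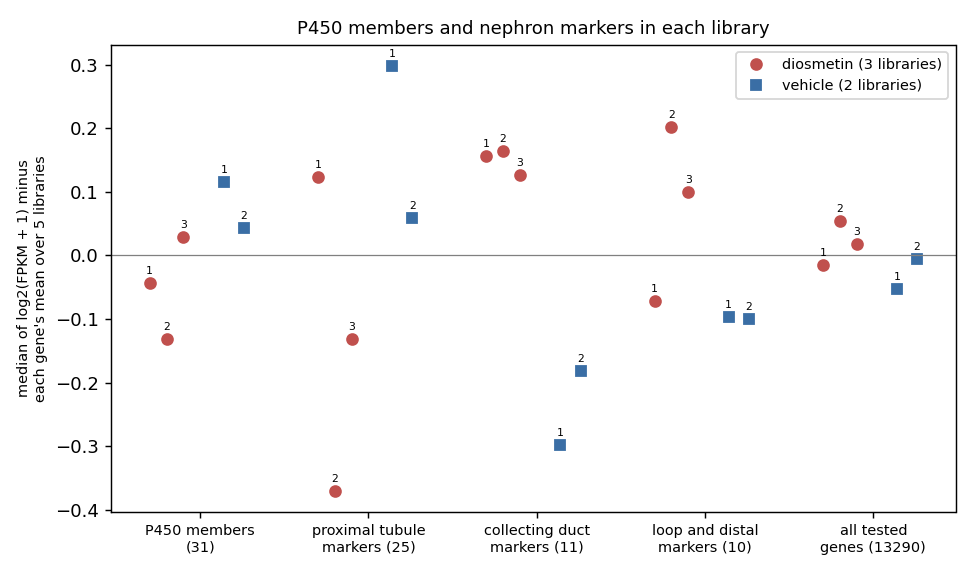
Median, in each library, of log2(FPKM + 1) centred on each gene's mean over the 5 libraries, for the tested P450 members, 3 nephron marker lists and all tested genes, with diosmetin left of vehicle and replicate numbers at the points. The P450 members and the proximal tubule markers are lowest in diosmetin replicate 2 and highest in vehicle replicate 1. All tested genes show the reverse for these libraries.

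Of 10 loop and distal tubule markers 9 had a higher mean (median 0.23). Podocyte (6 tested, median -0.10), endothelial (8, -0.02) and adrenal markers (6, 0.09) lay nearer to 0. Of 10 tested liver markers 8 had a lower mean (median -0.23), with 2 at an unadjusted p under 0.05 in each direction. Among all tested genes 1.69% stood at that level lower and 4.68% higher. Ttr and Fga were the lower ones, and Apoa1 and Serpina1a the higher. Ttr was at 12.1, 9.54 and 13.6 FPKM under diosmetin, against 54.0 and 29.3 FPKM under vehicle. For Apoa1 the values were 14.1, 10.8 and 15.5 FPKM under diosmetin, against 3.37 and 10.9 FPKM under vehicle. Alb lay between 4.99 and 7.25 FPKM under diosmetin and at 9.01 and 6.48 FPKM under vehicle. Of 3 tested B and T cell markers all were higher (0.28), and 1 adipose (0.11) and 1 pancreas marker (-0.45) were tested.

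Myeloid markers bear on Cyp4f18, the leukotriene B4 hydroxylase of mouse neutrophils, which stayed under the filter. It was at 0.395, 0.0979 and 0.0093 FPKM under diosmetin, against 0.0658 and 0.485 FPKM under vehicle. The 13 tested macrophage, dendritic cell and neutrophil markers had centred medians of 0.38, -0.15 and -0.12 in the diosmetin libraries and -0.85 and 0.71 in the vehicle libraries. Vehicle replicate 2 and diosmetin replicate 1 were the highest libraries for both. The neutrophil genes of the list did not all share that order. Csf3r did, at 1.11, 0.323 and 0.470 FPKM under diosmetin, against 0.125 and 1.24 FPKM under vehicle. S100a8 was at 1.03, 1.305 and 1.98 FPKM under diosmetin, against 0.199 and 0.735 FPKM under vehicle, and S100a9 at 2.69, 1.11 and 2.49 FPKM under diosmetin, against 0.0497 and 0.589 FPKM under vehicle. In both genes the diosmetin values lay above the vehicle values, with unadjusted p = 0.0173 for S100a8 and 0.00620 for S100a9, and adjusted p = 0.738 for both by limma. Ly6g, under the filter, was at 0.456, 0.0745 and 0.308 FPKM under diosmetin, against 0.723 and 0.594 FPKM under vehicle. The part of myeloid cells in the Cyp4f18 values was not tested.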

How the data were processed

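RNA was measured in 5 kidney libraries, 3 diosmetin and 2 vehicle, from ribosomal RNA-depleted, stranded, paired-end libraries per the labels' protocols. The deposited table gives the authors' FPKM values, with no further scaling between libraries recorded. The submitters' processing notes name GRCm38 as build. Aligner, counter and strand setting are not given here by any source, so close paralogs may share fragments. Depth was estimated from the step size of low values, with transcript lengths from GENCODE M21.

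Values were taken as log2(FPKM + 1). Genes averaging 0.5 FPKM or more (13290) entered a two-sided limma test (lmFit, then eBayes with a trend in variance, leaving 3 residual degrees of freedom). P-values were adjusted over all of them by Benjamini-Hochberg, with a threshold of 0.05. The procedure was also run on simulated data drawn from limma's own fitted variances. That run checked that planted differences came back on average, and cannot show that the model holds for these FPKM values. Exact permutation tests enumerated the 10 ways to assign the group labels, whose smallest p is 0.1. Nothing in the labels says that libraries came from separate animals, so p-values reflect only how these samples vary, possibly for technical reasons.

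The members and lists were chosen with earlier results of these data known. Values in every library are given for the highest member of each tested subfamily, members at an unadjusted p under 0.05, the 8 largest log2 differences and the 5 largest ratios between libraries among members with a mean FPKM of at least 1. Other members were named after their values were seen. Genes were not ranked by likeness, because 5 libraries are too few for a correlation. Alternatives were a pseudocount of 0.1, a minimum mean of 1 FPKM or none, scaling by median of ratios or to TPM, no variance trend, and leaving out each library. Promoters are RefSeq's (GRCm38.p6), and 68 of the 84 members had one. Coding sequences were taken as the longest open reading frame of GENCODE transcripts and aligned globally. R 4.3.3, limma 3.58.1, Python 3.11.15 and Biopython 1.88 were used.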

Additional observations from a re-analysis of the deposited data

How the results depend on the processing

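No gene and no member passed an adjusted p of 0.05 by limma under any of the 11 alternatives, so 0 calls were gained or lost. No paired analysis was possible because the labels give each library a number of its own. The direction of 19 tested members held under every alternative in which they were tested, among them Cyp26b1, Cyp2d9, Cyp2d12, Cyp2j5, Cyp3a13 and Cyp7b1, while 12 changed sign under at least 1. With a minimum mean of 1 FPKM the members at an unadjusted p under 0.05 in the higher direction numbered 1, against 4.95% of all tested genes. The members without overlap in that direction also numbered 1. With no filter the lower ones numbered 2 (Cyp26b1 and Cyp2j13), against 2.02% of all tested genes, and those without overlap 7. The median over members was -0.0086, since 71 members, most of them near 0, then entered. Median-of-ratios scaling turned Cyp4f16 to -0.036 and Cyp26c1 to -0.00097. Leaving out 1 diosmetin library at a time, members at that level ran from 0 to 2 (higher) and 1 to 6 (lower). All tested genes at that level ran from 2.04% to 6.23% (higher) and 0.865% to 2.75% (lower). Members without overlap ran from 2 to 4 (higher) and 6 to 10 (lower), where fewer libraries overlap less by construction. The share of all tested genes without overlap was not worked out under any alternative, so these overlap counts have no background beside them. Leaving out any 1 library, the median over members ran from -0.14 to -0.05 and that of CYP2A from -0.28 to 0.18. Single differences ran from -0.15 to 0.0097 for Cyp2j6, -0.43 to 0.18 for Cyp4a32, -0.30 to 0.060 for Cyp4b1, -0.15 to 0.17 for Cyp4f16, -0.13 to 0.10 for Cyp4f17, -0.37 to 0.82 for Cyp2a5, -0.41 to 0.087 for Cyp2c44, -0.59 to 0.24 for Cyp2e1, -0.052 to 0.16 for Cyp20a1, -0.11 to 0.024 for Cyp2s1, -0.13 to 0.20 for Cyp26c1 and -0.23 to 0.13 for Cyp27a1. Without vehicle replicate 1 the differences of Cyp2d22, Cyp2d26, Cyp2j9 and Cyp2u1 shrank to -0.048, -0.047, -0.14 and 0.17, and without diosmetin replicate 1 that of Cyp2a4 was -0.12. Without vehicle replicate 2 those of Cyp2d22, Cyp2d26 and Cyp2j9 were -0.39, -0.42 and -0.42. The cause of these shifts was not tested. When a vehicle library is left out, the lone vehicle library is assumed to vary like the others. Depth limits the members under 0.5 FPKM, which rest on few fragments.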

Other observations

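Members under the filter also varied between libraries, at levels that rest on few fragments. Cyp2j13 was at 0.213, 0.238 and 0.126 FPKM under diosmetin, against 0.775 and 0.351 FPKM under vehicle, without overlap. Cyp8b1, the sterol 12-alpha hydroxylase of bile acid synthesis, was at 0.0547, 0.0596 and 0.0682 FPKM under diosmetin, against 0.214 and 0.0950 FPKM under vehicle, also without overlap. Cyp2c70, which makes muricholic acids in mouse liver, had 0.150, 0.136 and 0.363 FPKM in the diosmetin libraries, against 0.655 and 0.0120 FPKM under vehicle. Cyp17a1, which makes androgens in the gonads, was at 0.220, 0.669 and 0.277 FPKM under diosmetin, against 0.241 and 0.134 FPKM under vehicle. These genes were chosen after their values were seen, and none passed the filter of the main test. Without that filter, and after rescaling to TPM, Cyp2j13 stood at an unadjusted p under 0.05 by limma.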
